A study of Arabidopsis thaliana with 2 samples.

Results

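The genes described here are those carried by the mitochondrial genome of Arabidopsis thaliana. They were taken as the genes with a probe set of their own whose annotated symbol begins as a mitochondrial gene name does (nad, cox, ccb, cob, atp, matR, orf, rpl or rps), with plastid genes left out. The rule also admits loci of the mitochondrial numbering, of which the annotation named 0. It gave 16 of the 13356 genes that could be read on the array, through 23 probe sets: 7 for nad1, 2 for nad5 and 1 for each other gene. Of the 16 genes, 15 are known genes and 1, orfX, is annotated as an open reading frame. All 16 were matched by symbol or synonym to the mitochondrial genes of the RefSeq table for TAIR10.1, where ccb206, ccb382, ccb203 and ccb452 are called ccmB, ccmFN1, ccmFN2 and ccmFC, and orfX is called mttB. That table holds 32 protein-coding mitochondrial symbols, and the other 16, among them cob, cox3, nad3, rpl16 and the ATP synthase genes, had no probe set of their own under the rule and were not analysed by name.

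Plants of ecotype Col-0 were grown on medium with N-(1-naphthyl)phthalamic acid (NPA), which inhibits polar auxin transport, dissolved in DMSO, or on medium with an equal volume of DMSO alone. Shoots were cut at about 2 weeks, with about 6 rosette leaves and a stated developmental stage of 1.04, after growth at about 20 C with 16 h of light. The dose is uncertain, since a note on the treated sample reads 10 uM NPA while the growth protocol shared by both reads 10 mM. Each group had 1 Affymetrix ATH1 array, so differences below have no replicate check and were not tested, and precision is limited by the number of arrays.

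Plant mitochondria keep a small genome of their own. It encodes subunits of the respiratory chain, of the ATP synthase and of the mitochondrial ribosome, together with proteins that attach haem to c-type cytochromes. The nuclear genome encodes the other subunits of the same complexes, so each complex is assembled from products of both genomes. Mitochondrial transcripts in plants are extensively edited and spliced, and most are not stably polyadenylated, while the labelling kit named in the labels primes RNA with oligo(dT). How much of each mitochondrial transcript was primed was not measured here.

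The tissue was checked first. The 4 photosynthetic shoot genes LHCB4.1, LHCB4.2, SBPASE and PRK gave signals from 2147 to 4230 with NPA and from 3671 to 5085 with DMSO. All 4 were lower with NPA, with log2 ratios from -0.77 for SBPASE to -0.21 for LHCB4.2 and a median of -0.38. The root gene PYK10 gave 425 with NPA and 609 with DMSO, so it was not absent, and the root gene EXPA18 gave 28.3 with NPA and 36.8 with DMSO. Of 3 flower genes, 0 had a named probe set. In whole shoots, fewer cells or organelles and less RNA in each cannot be told apart.

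Signals below an array's 40th percentile, 27.9 with NPA and 28.3 with DMSO, were set to that floor, and a gene counted as measured if either array exceeded its floor. Of the 16 mitochondrion-encoded genes, 10 were measured: 8 were above the floor in both arrays and 2 in DMSO only, while 6 were below both floors. None of the 10 measured genes reached 2-fold: 0 were higher with NPA by that much and 0 lower, where 3.75% and 2.13% of the 7753 measured genes of the whole array were. With so few members, 0 is near these shares and shows little about the group. At 1.5-fold the count was also 0 in each direction, against 11.2% higher and 10.6% lower over all measured genes. A log2 ratio of NPA over DMSO above 0 was found for 4 of the 10 and below 0 for 6, and 52.6% of all measured genes were below 0. Above both floors, 4 of the 8 genes were lower with NPA, as were 51.9% of all genes above both floors.

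The 7 known genes above both floors had a median log2 ratio of 0.03, with 4 higher and 3 lower with NPA, and the median of all genes above both floors was -0.02. With nad4L and ccb206, which were at the floor with NPA, the 9 measured known genes had a median of -0.06, which is the value of nad4L set by the floor, and the median of all measured genes was -0.03. The sign of the median thus depends on the genes at the floor. The 8 genes above both floors had geometric mean signals from 31.6 to 222.9. Over the 5443 genes in that signal range, the 10th and 90th percentiles of the log2 ratio were -0.59 and 0.63, and all 8 mitochondrial genes lay between them. The log2 ratios of the 18 spike-in probe sets, which carry no plant RNA, had an SD of 0.21. Of the 8 mitochondrial genes, 5 lay further from 0 than that SD, and cox2, nad4 and nad9 lay nearer. The spike-in SD holds no difference between plants or their RNA, so it does not show which ratios exceed such differences. Over the 5443 plant genes of the same signal range, the SD of the log2 ratio was 0.54. The lower and upper quartiles of those log2 ratios were -0.30 and 0.30, both further from 0 than the spike-in SD. Ratios beyond that SD were thus common over the array, and the 5 of 8 shows little about the mitochondrial genes.

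**Figure D1:**
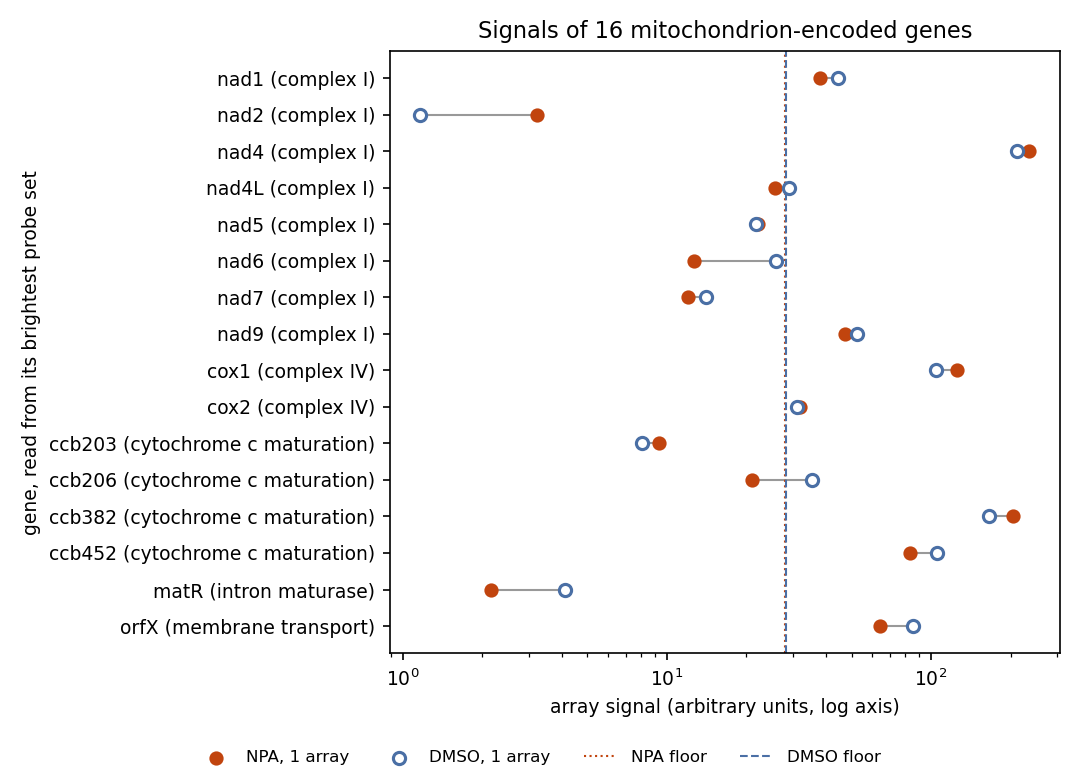
Signal of each mitochondrion-encoded gene in the NPA array (filled) and the DMSO array (open), in arbitrary units on a log axis, with the floors of 27.9 and 28.3 as vertical lines. The 2 signals of a gene lie close together above the floors, and 6 genes lie below both floors.

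Complex I, the entry point of electrons from NADH, is the complex with the most members here. Of its 8 genes, all encoding subunits, nad1, nad4 and nad9 were above both floors. The nad4 gene, for a membrane subunit that takes part in proton pumping, gave 235 with NPA and 211 with DMSO, a 1.12-fold difference and a log2 ratio of 0.16. The nad9 gene, for a subunit of the arm that stands in the matrix, gave 47.4 with NPA and 52.6 with DMSO, a log2 ratio of -0.15. Thus nad4 was slightly higher and nad9 slightly lower with NPA, each by less than the spike-in SD.

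For nad1, a membrane subunit whose transcript is joined from separate pieces by trans-splicing, the brightest probe set gave 38.1 with NPA and 44.6 with DMSO, a log2 ratio of -0.22. The small membrane subunit gene nad4L gave 25.8 with NPA, below the floor, and 29.1 with DMSO, just above it. That leaves no fold to read. The other complex I genes were below both floors: nad2 gave 3.23 with NPA and 1.17 with DMSO, nad5 gave 22.2 and 21.7, nad6 gave 12.7 and 25.9, and nad7 gave 12.1 and 14.1.

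Complex IV, cytochrome c oxidase, passes electrons from cytochrome c to oxygen. The gene of its catalytic core, cox1, gave 125 with NPA and 104 with DMSO, a 1.2-fold difference and a log2 ratio of 0.26. The gene of the subunit that binds cytochrome c, cox2, gave 32.0 with NPA and 31.2 with DMSO, both close to the floors, a log2 ratio of 0.03. Both ratios were above 0 by small amounts, but that of cox2 was nearer 0 than the spike-in SD, so its side of 0 says little.

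The cytochrome c maturation genes went in different directions. The ccb382 gene (ccmFN1), 1 of 3 genes here for parts of the haem lyase, gave 203 with NPA and 165 with DMSO, a 1.23-fold difference and a log2 ratio of 0.30, the highest among the measured members. The ccb452 gene (ccmFC), for another part of the haem lyase, gave 83.3 with NPA and 105 with DMSO, 1.26-fold lower with a log2 ratio of -0.33. These genes of 1 assembly pathway thus stood on opposite sides of 0 in these arrays. The ccb206 gene (ccmB), for a membrane part of the haem export machinery, gave 21.0 with NPA, below the floor, and 35.3 with DMSO. Under the floor and scaling used it was at least 1.27-fold lower. The ccb203 gene (ccmFN2), a further part of the haem lyase, was below both floors, with 9.30 with NPA and 8.08 with DMSO.

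The only open reading frame entry, orfX (mttB), encodes a membrane protein related to the TatC protein of bacterial twin-arginine transport. It gave 64.2 with NPA and 85.4 with DMSO, 1.33-fold lower with a log2 ratio of -0.41, which was the lowest among the genes above both floors. The maturase gene matR, whose product takes part in splicing mitochondrial introns and which lies within an intron of nad1, was below both floors, with 2.17 with NPA and 4.12 with DMSO. The probe sets of orfX, matR, ccb452, nad6 and the brighter probe set of nad5 carry the suffix that marks probes matching more than 1 transcript. Of the 2 measured genes with that suffix, both were lower with NPA, and of the 8 without it, 4 were higher and 4 lower.

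**Figure D2:**
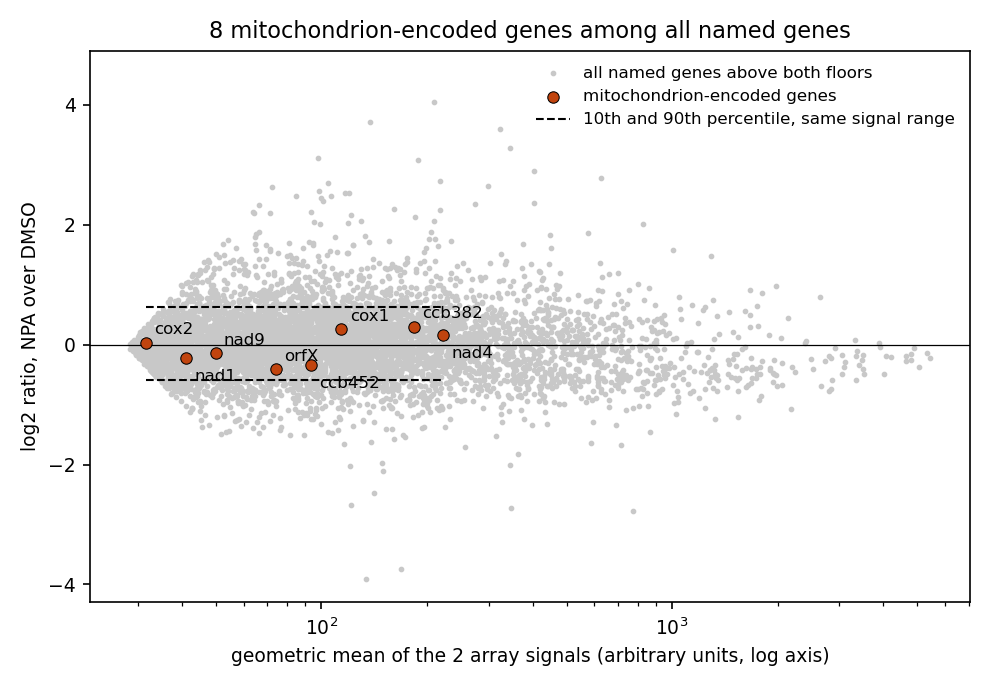
Log2 ratio of NPA over DMSO against the geometric mean of both signals (log axis) for all 6809 named genes above both floors (grey) and the 8 mitochondrion-encoded genes among them (named). All 8 lie between the dashed lines at -0.59 and 0.63, the 10th and 90th percentiles over genes of the same signal range.

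Some measured genes are listed next to each other in the RefSeq order of protein-coding genes, and the neighbours given here stood on opposite sides of 0. Coordinates were not used, so distances between them were not read. The order ccb452, nad4, orfX had log2 ratios of -0.33, 0.16 and -0.41. The neighbours nad1 and cox1 had -0.22 and 0.26, but nad1 is joined from separate pieces, and which piece its probe set reads was not examined. The cox2 gene had 0.03 beside ccb206, which was at least 1.27-fold lower with NPA under the floor and scaling used. The values of nad4 and cox2 were nearer 0 than the spike-in SD, so their side of 0 says little. Whether neighbours differ was not tested.

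The 7 probe sets of nad1 give a view of how far probe sets of 1 gene differ. Without a floor, 5 were lower with NPA and 2 higher, with log2 ratios from -0.84 to 0.55 and a median of -0.22, so the probe sets of 1 gene spanned 1.39 on the log2 scale. The lowest ratio came from a probe set with 24.3 with NPA and 43.6 with DMSO, and the highest from a probe set below both floors, with 7.46 and 5.10. Only 1 nad1 probe set was above both floors, 4 were above 1 floor and 2 were below both. Without a floor, 7616 of the 13356 named genes of the array were also lower with NPA, so the 5 of 7 show little about nad1. The second nad5 probe set gave 12.3 with NPA and 20.4 with DMSO, and the brighter one 22.2 and 21.7. With the floor, the log2 ratios of the 7 nad1 probe sets ran from -0.65 to 0.15. The span without a floor is a range over 7 probe sets, its upper end set by signals below both floors. It is therefore not a measure like the single ratio of a gene.

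**Figure D3:**
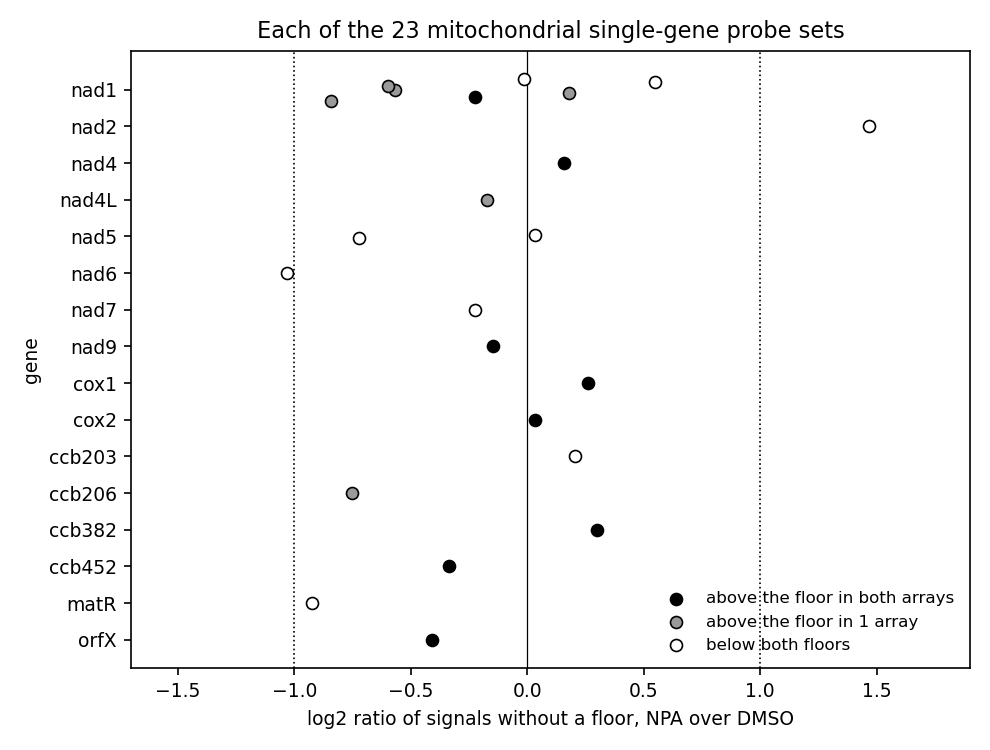
Log2 ratio of NPA over DMSO, without a floor, for each of the 23 probe sets (points) by gene. Filled points are above the floor in both arrays, grey points in 1 array and open points in neither. The 7 nad1 points spread from -0.84 to 0.55, and the points beyond the dotted 2-fold lines, nad2 and nad6, are below both floors.

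Of the 6 genes below both floors, 3 had a lower signal with NPA and 3 a higher one, while 63.7% of all 5603 named genes below both floors had a lower signal with NPA. Signals in this range are lower on the NPA array over the whole array: the median log2 ratio of the 8276 probe sets below both floors was -0.24. The 27 control probe sets for bacterial RNA, all of low signal, had medians of 2.47 with NPA and 4.75 with DMSO, and reached at most 10.9 and 15.7. The nad2, matR and ccb203 genes, 3 of the 6, were under these highest values in both arrays. For these 6 genes no fold is given.

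A further 12 probe sets list a mitochondrial gene together with a second gene, and 11 of these list a locus on chromosome 2. The Col-0 nuclear genome carries a large copy of mitochondrial DNA near the centromere of chromosome 2, so such probe sets cannot tell the copies apart. They are not members, and no gene is named from them. Of the 12, 8 were above both floors and 4 below both, and 0 of the 8 reached 2-fold, again near the shares of 3.75% and 2.13% over all measured genes. Their log2 ratios ran from -0.41 to 0.32 with a median of -0.01, with 4 above 0 and 4 below.

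The chromosome 2 loci that lie between the lowest and the highest of those partner loci, AT2G07671 and AT2G07734, were read as well, a choice made after their values were seen. Of 23 such loci with their own probe set, 17 were below both floors and 6 were measured, of which 5 were lower with NPA and 1 higher. Their median log2 ratio was -0.51. Over all measured genes, 52.6% were below 0 and the median was -0.03. The probe sets of all measured loci but AT2G07724 carry the suffix that marks probes matching more than 1 transcript. AT2G07707 gave 71.9 with NPA and 146 with DMSO, 2.02-fold lower, and AT2G07718 gave 146 and 144. Only AT2G07707 passed 2-fold, where 2.13% of all measured genes were at least 2-fold lower. Whether the probes of these loci read the nuclear or the mitochondrial copy was not tested.

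Nuclear genes of mitochondria were read from 6 lists of 99 genes, of which 30 had a probe set of their own and 20 were measured. Of the 20, 0 passed 2-fold in either direction, which is near the shares of 3.75% and 2.13% over all measured genes, with 10 log2 ratios above 0, 10 below and a median of -0.0009. Of 29 genes for nuclear subunits of the respiratory complexes, ATP synthase and cytochrome c, 12 were measured, with 7 above 0, 5 below and a median of 0.05. CYTC-2, a cytochrome c gene, gave 109 with NPA and 143 with DMSO, a log2 ratio of -0.38. SDH1-1, for the flavoprotein subunit of succinate dehydrogenase, gave 333 with NPA and 258 with DMSO, a log2 ratio of 0.37. SDH2-2, for an iron-sulfur subunit of the same enzyme, had -0.31, and AT2G47380 had 0.37.

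In the alternative respiration list, 5 of 14 genes had a probe set and 3 were measured. NDB2, for an NAD(P)H dehydrogenase that bypasses complex I, gave 99.5 with NPA and 54.8 with DMSO, 1.81-fold higher. It was the only 1 of the 20 measured genes of the 6 lists past 1.5-fold. Over all measured genes, 11.2% were that much higher and 10.6% that much lower. NDC1 had a log2 ratio of -0.43 and NDB1 of -0.19. The alternative oxidase genes had no named probe set here and were not analysed. In the mitochondrial stress response list, 2 of 8 genes were measured. AT5G09570 was at least 1.25-fold lower with NPA under the floor and scaling used. AT2G21640 gave 27.4 with NPA, below the floor, and 29.2 with DMSO. In the mitochondrial gene expression list, 7 of 25 genes had a probe set and 2 were measured, AT5G04050 with a log2 ratio of -0.43 and AT5G46920 with 0.15. The other 5 were below both floors. In the cytochrome c maturation and assembly list, 1 of 8 genes was measured, AT1G02410 with a log2 ratio of 0.17. Of 15 genes for carriers, channels and prohibitins, 0 had a named probe set.

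The plastid genome is the other organelle genome read on these arrays. Of 69 plastid-encoded genes, 68 were measured, against 10 of 16 mitochondrion-encoded genes. The 68 had a median log2 ratio of -0.38, with 64 below 0 and 4 above, and 1 passed 2-fold, on the lower side. The 4 nuclear genes of photosynthesis read as shoot markers had a median of -0.38 as well, and their part in the plastid values was not tested. The 10 mitochondrion-encoded genes had a median of -0.10, with 6 below 0 and 4 above. Over genes above both floors, the median was -0.06 for 8 mitochondrion-encoded genes and -0.38 for 66 plastid-encoded genes. Most plastid genes gave higher signals than any of the mitochondrial ones, so the sets differ in signal range. With 1 array in each group, the difference between the organelles was not tested.

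**Figure D4:**
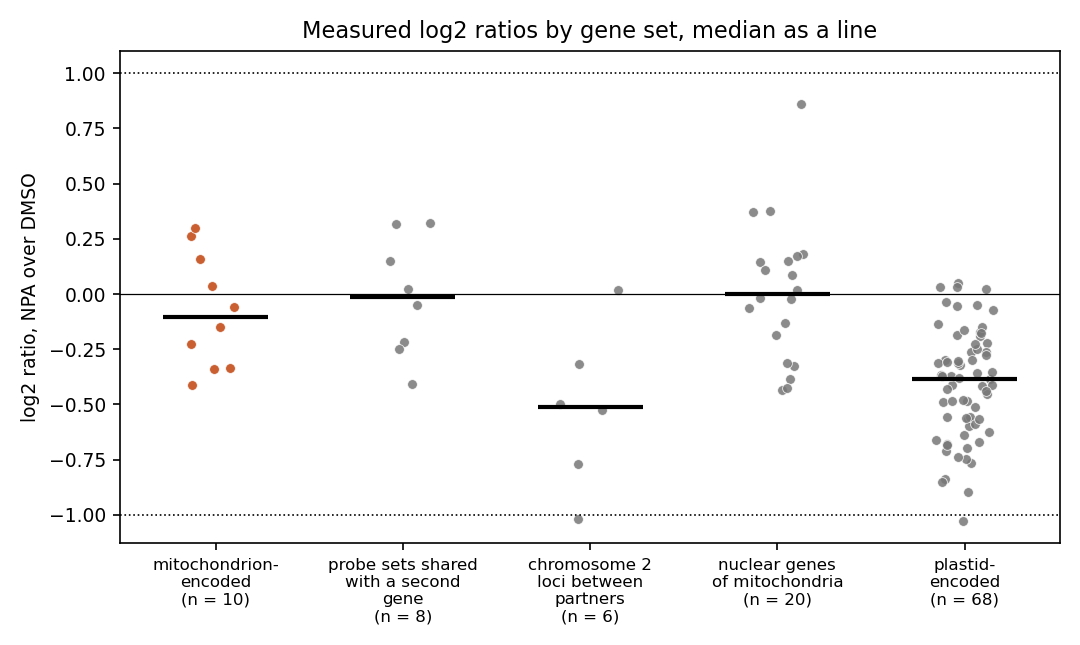
Log2 ratio of NPA over DMSO for measured members of 5 gene sets, each point a gene or probe set and each bar a median. The 10 mitochondrion-encoded genes lie from -0.41 to 0.30 around a median of -0.10, and the 68 plastid-encoded genes around -0.38. Points with 1 array at the floor are bounds.

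**Figure D5:**
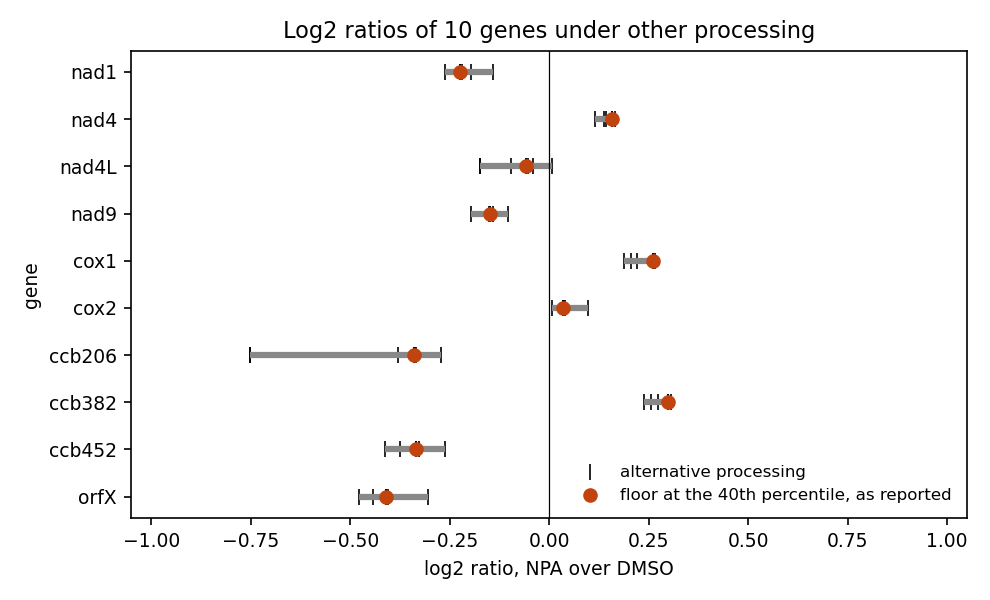
Log2 ratio of NPA over DMSO of the 10 measured mitochondrion-encoded genes as reported (coloured points) and under each alternative processing (ticks, joined by a bar). The bars of 9 genes keep to 1 side of 0, nad4L crosses it, and the longest bar is that of ccb206, from -0.75 to -0.27.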

How the data were processed

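The authors deposited 1 linear signal intensity for each probe set of each array, made with MAS5 and GCOS according to the submitters' processing notes, which give no versions. The mean of each array, with 2% trimmed at each end, was 100.0 in both, which shows a common scaling before deposit. Of 22746 analysed probe sets, 13513 have 1 gene, 503 several and 8730 none. A gene was read from its brightest single-gene probe set. Signals under the 40th percentile were set to it, and the log2 ratio of NPA over DMSO was taken. No test was possible with 1 array per group, so a 2-fold size rule was used. All known members were named, and of each nuclear list up to 4 measured genes with the largest ratios and any at 2-fold. The members, lists and rules were chosen with earlier results of these data known. RefSeq names were used without coordinates. Alternatives were median, quantile and lowess scaling, other floors, other probe set choices and other size rules. The steps were tested on simulated data with planted changes larger than 2-fold in bright genes. That test does not cover small ratios or signals near the floor. Python 3.11.15, numpy 2.4.6, pandas 2.3.3, statsmodels 0.14.6 and matplotlib 3.10.9 were used.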

Additional observations from a re-analysis of the deposited data

How the results depend on the processing

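Of 62 alternative values of medians and counts, 58 moved by less than the spike-in SD or kept their count, and 4 moved further. All 4 were values of the known genes. The open reading frame values rest on 1 gene, orfX. Some of the 62 could not move, such as a mean over 1 gene or a 3-fold count where the 2-fold count was 0. The 58 therefore overstate how stable the results are. A floor at the 55th percentile left 4 known genes with a median of 0.21, and the median of known genes otherwise lay between -0.16 and 0.03. It was above 0 after lowess centring, at 0.01, and over genes above both floors only, at 0.03, the second an alternative chosen after seeing the data. With the floor at the 25th percentile 1 known gene, nad6, was at least 2-fold lower with NPA. Without a floor 1 was higher (nad2) and 1 lower (nad6), both from signals under the 40th percentile. These shifts follow from which genes a floor keeps. The log2 ratio of ccb206 moved to -0.75 under a 25th percentile floor or none, and nad4L turned to 0.01 after lowess centring. The other 8 measured genes kept their sign wherever they had a value. Averaging the probe sets of nad1 put it below both floors, and leaving out probe sets with the shared suffix removed ccb452 and orfX. The restriction to mitochondrial locus numbers left 0 genes and could not be run. No paired analysis was possible because each group has 1 array, and for the same reason none was left out. Signals near the floor limit what can be read for cox2, nad1, nad4L and ccb206.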
